A study of Drosophila melanogaster with 20 samples.

Results

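Ilp5, sug and CG11909 are 3 genes of Drosophila melanogaster that are tied to insulin and to dietary sugar, and they were followed in heads and brains of mated against virgin females. They are 3 of the 389 genes to which a name could be given among 15744 probes, and they occupied 4 rows of the table, with 41 of 60 possible array values filled. Ilp5 encodes an insulin-like peptide that is made by a small group of neurosecretory cells in the brain and released into the blood. The gene sug (sugarbabe) encodes a zinc finger transcription factor known as a sugar-induced gene of the larva. CG11909, listed today as tobi (target of brain insulin), encodes a glucosidase-like protein of the fat body whose transcript responds to the brain's insulin cells and to the protein and sugar content of the diet.

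The genes were selected on measured values: each was among the top-ranked genes that the study listed for heads, Ilp5 and sug at 72 h and CG11909 at 24, 48 and 72 h after mating. Those 5 means are therefore described without a test. The other 7 values with at least 2 arrays were tested. In the ranking by p used here, CG11909 had rank 3 of 4140 probes at 24 h, rank 5 of 2981 at 48 h and rank 32 of 6416 at 72 h, sug had rank 42 at 72 h and Ilp5 rank 61 at 72 h. For scale, the probes at ranks 100 and 101 had absolute mean log2 ratios of 0.78 and 0.92 at 24 h, 1.05 and 1.12 at 48 h, and 0.45 and 0.61 at 72 h.

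Mated females were wild-type Canton S, paired at 5 days of age with w; P[UAS-dj-GFP] males, whose sperm carry a GFP-tagged protein by which successful matings were recognised. Their heads were taken 0-2, 24, 48 or 72 h later, and brains were dissected at 24 h. The virgins on the same arrays were Canton S females of the same age, and at 0-2 h they had met no males but had also been anaesthetised with CO2. For 0-2 h the paper allows that virgins may have been exposed to CO2 slightly longer than mated females. Each of the 5 experiments had 4 arrays with independent samples of about 100 heads or 20 brains per channel, mated RNA carrying Cy3 on replicates 1 and 2 and Cy5 on replicates 3 and 4. Brain RNA was amplified before labelling and head RNA was not. All values below are log2 ratios of mated over virgin, so that negative values mean less transcript in mated females; a ratio gives no level, and in a whole head or brain fewer cells of a type cannot be told apart from less RNA per cell.

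The number of probes with a value ranged between 1818 and 4896 per array in heads at 0-2 h, 1879 and 4559 in heads at 24 h, 2076 and 2875 in heads at 48 h, 3600 and 6466 in heads at 72 h, and 5840 and 6399 for brains, and with 4 arrays this limits every mean. Arrays of opposite dye orientation correlated at r = -0.46 to -0.39 over all probes at 0-2 h and at -0.39 to -0.22 in brains, against 0.14 to 0.44 at 48 h, although the ratios had been turned for the dye swap. Two-sided tests were limma's moderated test of a mean log2 ratio other than 0, called at a Benjamini-Hochberg adjusted p under 0.05 over all probes. In heads this called 0.0775% of probes (0-2 h), 0.0242% (24 h), 2.48% (48 h) and 0.0779% (72 h), and for brains 0%. An unadjusted p under 0.05 was reached in heads by 245 of 3871 probes (0-2 h), 326 of 4140 (24 h), 451 of 2981 (48 h) and 545 of 6416 (72 h), and in brains by 368 of 6498. Of all these probes, the share with a mean below 0 in heads was 47.6% (0-2 h), 46.8% (24 h), 47.8% (48 h) and 46.9% (72 h). For brains it was 52.1%. A one-sample test per probe without limma's shared spread called no probe in any experiment. Of the 7 tested values of the 3 genes, limma called 0, with 1 at an unadjusted p under 0.05, and the unmoderated test called 0, with 0 at that level.

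Ilp5, the insulin-like peptide gene, lies on chromosome arm 3L near Ilp3 and Ilp4, further insulin-like peptide genes (FlyBase FBgn0044048, probe DAC017O16). Its transcript was measured mainly at 72 h in heads and in brains. It was lower in mated females on the 3 measured arrays at 72 h, which chose the gene. It was also lower on the 4 brain arrays, which did not choose it. At 72 h the log2 ratios were -0.69, -0.52 and -0.57 on replicates 1, 2 and 4, and replicate 3 had no value. Both dye orientations gave a similar value, and no array approached 0. The mean was -0.59 ± 0.09 (SD, n = 3), or 1.51-fold lower in mated heads, a value that chose the gene.

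Brains did not take part in the choice of Ilp5 and hold the neurosecretory cells that make it. In brains at 24 h the log2 ratios of Ilp5 were -0.30, -0.82, -0.36 and -0.14 on replicates 1 to 4. Every array was below 0, replicate 2 stood lowest, and the other 3 arrays lay closer to 0 than any array at 72 h. The mean was -0.41 ± 0.29 (SD, n = 4; SE 0.17), 1.33-fold lower in mated brains, which was not called (limma adjusted p = 0.874, unadjusted p = 0.0501). Mated RNA in Cy3 gave a mean of -0.56 and mated RNA in Cy5 a mean of -0.25, so the sign did not turn with the dye. The array values in brains spanned those at 72 h in heads.

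At the earlier times in heads Ilp5 was hardly measured. It had no value on any array at 0-2 or 48 h and a single value of 0.39 at 24 h, on replicate 3 with mated RNA in Cy5. That one array was higher in mated females, opposite to the arrays of 72 h and of brains, and it has no replicate. Such a pattern of empty cells was not particular to Ilp5: of 2467 probes with at least 3 values at 72 h and 4 in brains, 196 (7.94%) likewise had none at 0-2 and 48 h and at most 1 at 24 h. No difference between brain and head at 24 h could be tested for this gene.

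The transcription factor gene sug, on chromosome arm 2R (FBgn0033782, probe DAC003D03), was measured in all 5 experiments, as were 1471 of 11136 probes (13.2%) with at least 2 values in each. It was higher in mated females on all 4 arrays at 72 h and on all 3 measured arrays in brains. At 72 h the log2 ratios were 0.25, 0.70, 0.75 and 0.60 on replicates 1 to 4. Replicate 1 was the lowest, the other 3 lay close together, and no array overlapped 0. Their mean of 0.58 ± 0.23 (SD, n = 4), 1.49-fold higher in mated heads, chose the gene.

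In brains at 24 h, which the choice did not use, sug had log2 ratios of 0.79, 0.21 and 0.54 on replicates 2, 3 and 4, with no value on replicate 1. All 3 arrays were above 0, with the highest on the array of mated RNA in Cy3. The mean of 0.51 ± 0.29 (SD, n = 3; SE 0.20) amounted to 1.43-fold higher in mated brains, and it was not called (limma adjusted p = 0.874, unadjusted p = 0.0439). Size and sign were thus close to those in heads at 72 h, with overlapping arrays.

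Heads at 24 and 48 h gave sug positive means with a wide spread. At 24 h the log2 ratios were 0.22 on replicate 1 and 1.64 on replicate 3, a mean of 0.93 ± 1.01 (SD, n = 2; limma adjusted p = 0.660). Both measured arrays were above 0, but the array with mated RNA in Cy5 was far above the one in Cy3. At 48 h the values were 0.15, -0.18, 0.30 and 0.80 on replicates 1 to 4, a mean of 0.27 ± 0.41 (SD, n = 4; limma adjusted p = 0.540). Here 3 of 4 arrays were above 0 and replicate 4 stood highest. Mated RNA in Cy3 averaged -0.01 and mated RNA in Cy5 0.55, so the positive mean came from the arrays with mated RNA in Cy5.

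At 0-2 h the sign of sug depended on the dye. The log2 ratios were -1.14 and -1.30 on replicates 1 and 2, with mated RNA in Cy3, and 0.97 on replicate 3, with mated RNA in Cy5. The 2 orientations lay on opposite sides of 0, so that the normalised Cy5 signal exceeded the Cy3 signal on all 3 arrays whichever females it came from. The mean was -0.49 ± 1.27 (SD, n = 3; limma adjusted p = 0.931). Averaging the 2 orientations equally gave -0.13, and the part that turned with the dye, the difference between orientations divided by 2, was 1.10. Of all probes measured in both orientations at 0-2 h, 68.6% had means whose sign turned with the dye.

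**Figure D1:**
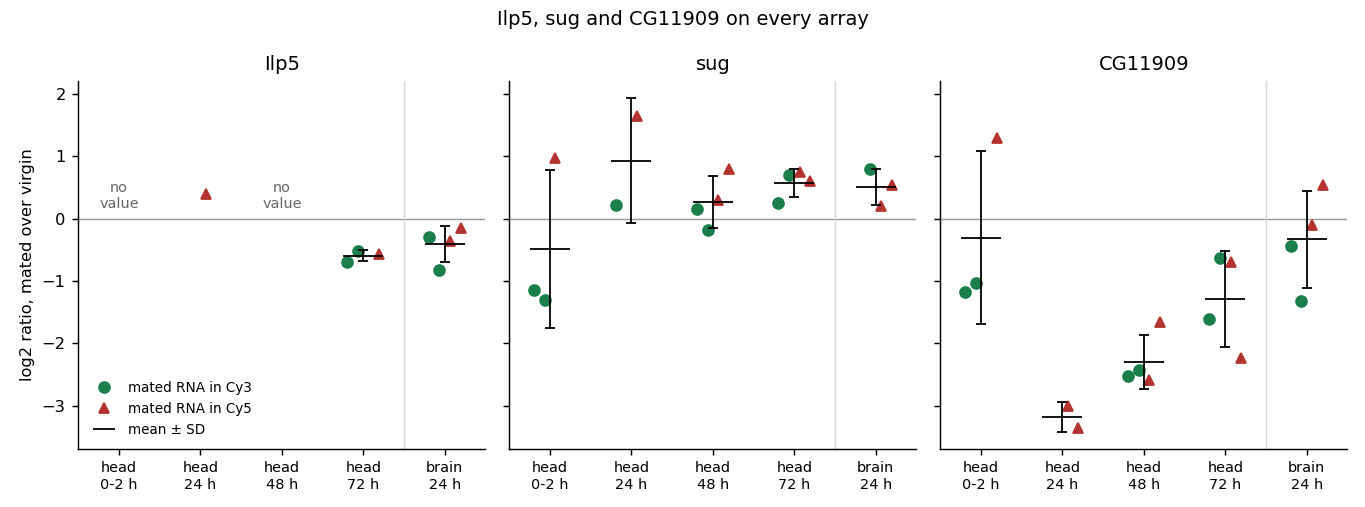
Log2 ratio of mated over virgin (vertical axis) on each array for Ilp5, sug and CG11909, by tissue and hours after mating, with circles for mated RNA in Cy3, triangles for mated RNA in Cy5, and bars for mean ± SD where at least 2 arrays had a value. Ilp5 lies below 0 and sug above 0 at 72 h and in brains, CG11909 runs from -3.18 at 24 h to -1.29 at 72 h, and at 0-2 h the circles and triangles of sug and CG11909 fall on opposite sides of 0.

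Ordered by mean, sug was lowest at 0-2 h, followed by 48 h, brains, 72 h and 24 h, and the arrays of each neighbouring pair in that order overlapped. Differences between experiments that did not choose the gene were tested in 1 limma fit of all 20 arrays. The 72 h arrays, which chose the gene, thus entered the estimate of the spread. The log2 ratio at 24 h exceeded that at 0-2 h by 1.42 (SE 0.54), which was not called (limma adjusted p = 0.230; 0.998% of 2406 probes were called). That at 48 h exceeded 0-2 h by 0.76 (SE 0.44; limma adjusted p = 0.521; 1.17% of 1798 probes called), and it ranged between 0.47 and 1.48 with a replicate left out, the highest without replicate 3. Neither difference passed, and both lean on the 0-2 h arrays whose signs turned with the dye. The ratio at 48 h minus that at 24 h was -0.66 (SE 0.50; limma adjusted p = 0.892; 0% of 1827 probes called), and the ratio in brains minus that in heads at 24 h was -0.42 (SE 0.53; limma adjusted p = 0.748; 1.16% of 2499 probes called). With only the arrays of the experiments compared, none was called either. The SE was then 0.74 for 24 h minus 0-2 h and 0.49 for 48 h minus 0-2 h. It was 0.42 for 48 h minus 24 h and 0.44 for brains minus heads at 24 h.

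CG11909, the insulin target of the fat body, had the log2 ratios farthest from 0 of the 3 genes. It lies on chromosome arm 3R and was read by probe DAC035N09 at 0-2 and 24 h and by probe DAC035L23 at 48 h, 72 h and in brains, because the print layout differed on its plate. Its transcript was lower in mated heads on every measured array at 24, 48 and 72 h, 10 arrays in all, with the mean nearest to 0 at 72 h. These 3 time points chose the gene.

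At 24 h the log2 ratios of CG11909 were -3.01 and -3.35 on replicates 3 and 4, both with mated RNA in Cy5, and replicates 1 and 2 had no value. The mean was -3.18 ± 0.24 (SD, n = 2), or 9.05-fold lower in mated heads. With 1 orientation measured, a dye effect and the effect of mating cannot be told apart there. At 48 h all 4 arrays had a value, -2.52, -2.42, -2.58 and -1.66 on replicates 1 to 4. Replicate 4 was closest to 0 and the other 3 nearly equal, and both orientations were far below 0. The mean was -2.30 ± 0.43 (SD, n = 4), or 4.91-fold lower in mated heads.

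At 72 h CG11909 had a wider spread, with log2 ratios of -1.61, -0.64, -0.69 and -2.23 on replicates 1 to 4. Replicates 1 and 4 were low and replicates 2 and 3 lay nearer to 0, each pair holding both dye orientations. The mean was -1.29 ± 0.77 (SD, n = 4), or 2.45-fold lower in mated heads. The arrays of 48 and 72 h overlapped. Those of 24 h lay below all of 48 h, but a different probe read them.

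In brains at 24 h and in heads at 0-2 h, which did not choose the gene, CG11909 showed no common direction. The brain arrays gave -0.43, -1.32, -0.10 and 0.54 on replicates 1 to 4, with a mean of -0.33 ± 0.78 (SD, n = 4; limma adjusted p = 1.00, unadjusted p = 0.291). Of these, 3 arrays were below 0 and 1 above, and mated RNA in Cy3 averaged -0.88 against 0.22 for mated RNA in Cy5. The 0-2 h arrays gave -1.18 and -1.04 on replicates 1 and 2, with mated RNA in Cy3, and 1.29 on replicate 4, with mated RNA in Cy5. As for sug, the sign turned with the dye, and the part that turned was 1.20 while the equal average of both orientations was 0.094. The mean of the 3 arrays was -0.31 ± 1.39 (SD; limma adjusted p = 0.976).

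Since heads hold fat body, CG11909 was set beside 6 fat body markers on the same arrays, among them Lsp2 and Lsp1beta, storage proteins, and to and fit, secreted proteins. Over the list the median log2 ratio in heads, mated over virgin, stood at -2.44 (24 h), -2.60 (48 h) and -1.29 (72 h), against a median over all probes of 0.03, 0.01 and 0.01. All 5 tested markers had negative means at 24 h with 1 called, all 6 at 48 h with 5 called, and 5 of 6 at 72 h with 2 called, beside 0.0242%, 1.98% and 0.0623% of all probes called lower. The study had listed 5, 5 and 4 of the tested markers at these times, so their direction is not independent evidence.

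From array to array CG11909 kept close to the marker median at 72 h, a time point that chose the gene. CG11909 had -1.61, -0.64, -0.69 and -2.23 on replicates 1 to 4 at 72 h, and the marker median had -1.56, -0.52, -0.40 and -1.93. That median was over the 6, 4, 6 and 5 markers with a value on the respective array. The 2 arrays that were low for the gene were the 2 with the low marker medians, but these medians are over unlike sets. Replicate 2 had no value for to and Obp99b, the 2 markers with the lowest means at 72 h (-2.06 and -2.50). Replicate 4 had none for Lsp1beta, the 1 marker with a positive mean (0.16). On replicate 3 the markers ranged from -2.64, the value of to, up to 0.96. At 48 h the marker median was -1.46, -2.39, -2.57 and -2.54, and replicate 4, where CG11909 was nearest to 0, was among the low ones. The part of a shared tissue in the CG11909 values was not tested.

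In brains the marker median was 0.34, -1.51, -0.50 and 0.13 on replicates 1 to 4, with all 6 means below 0, none called and 1 at an unadjusted p under 0.05. That 1 was Obp99b, the only marker that the study had listed in brains. Of all 6498 brain probes, 52.1% had a mean below 0 and 368 reached that level in either direction. Replicate 2 was the lowest array both for the markers and for CG11909. The same array gave the lowest value of Ilp5 and the highest of sug. Without replicate 2 the brain means were -0.27 for Ilp5, 0.37 for sug and 0.00381 for CG11909, the last with its sign turned. At 0-2 h all 5 tested markers had positive means (median 0.67, 0 called, 3 at an unadjusted p under 0.05), whereas CG11909 was negative on the 2 arrays with mated RNA in Cy3 and positive, like the markers, on the 1 in Cy5. The study had listed 2 of the 5 at 0-2 h, both among those 3, so their direction is not independent evidence. Of all probes at 0-2 h, 245 of 3871 reached that level in either direction.

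**Figure D2:**
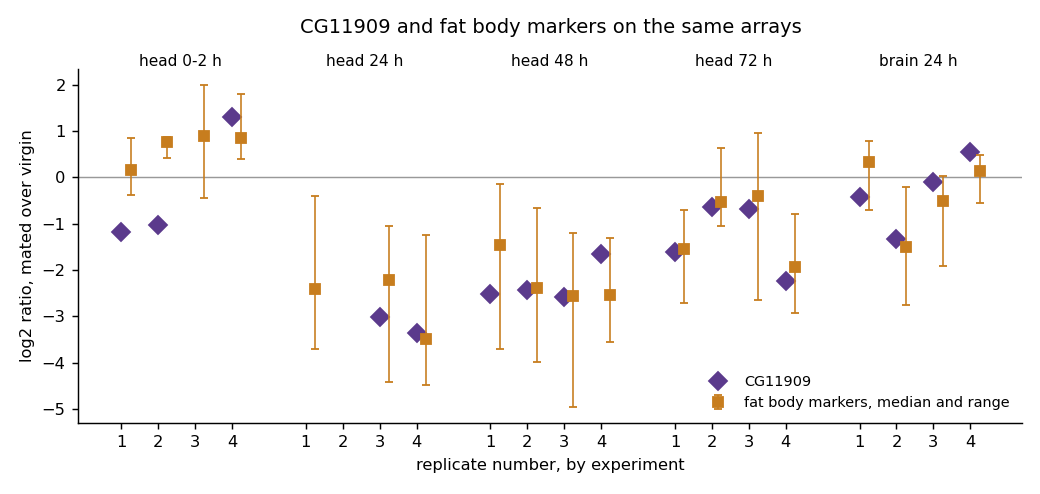
Log2 ratio of mated over virgin (vertical axis) on each array, by replicate number within each experiment, for CG11909 (diamonds) and for the fat body markers (squares for the median, bars for the range). At 72 h CG11909 (-1.61 and -2.23) and the marker median (-1.56 and -1.93) are low on replicates 1 and 4. In brains both are lowest on replicate 2.

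Other cell types were checked in the same way. The 4 eye markers had positive means in mated heads at 24 h (median 1.26, 0 called, 4 at an unadjusted p under 0.05), and the study had listed all 4 there. The 6 neuron markers had negative means in mated brains (median -0.65, 0 called, 5 at an unadjusted p under 0.05), of which the study had listed 5. Of all 6498 probes in brains, 52.1% had a mean below 0 and 368 reached that p in either direction. Ilp5, itself the marker of the insulin cells and a product of neurons, had a brain mean of -0.41, nearer to 0 than that median. Whether these shifts bear on Ilp5 or sug was not tested.

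Genes that transport and process sugars were described as the surroundings of the 3 genes. In mated heads at 24 h, 13 of 14 tested members of a list of 16 had negative means, with a median of -0.82, 0 called and 11 lower at an unadjusted p under 0.05, a level that 326 of all 4140 probes reached in either direction. At 48 h, 13 of 14 were negative, with a median of -0.84, and 8 were called lower against 1.98% of all probes. CG11909 was below every member of the list at both times. The study had listed 7 of the 14 at 24 h and 10 of the 14 at 48 h, so their direction is not independent evidence.

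The named members at 48 h were CG32444, a predicted galactose mutarotase (-2.01 ± 0.15, SD, n = 4; limma adjusted p = 0.000383), Tal, the transaldolase of the pentose phosphate pathway (-1.27 ± 0.13, n = 4; adjusted p = 0.00285), and CG9485, the glycogen debranching enzyme (-1.15 ± 0.19, n = 3; adjusted p = 0.0173). At 24 h they were CG32444 (-1.56 ± 0.58, n = 3), CG17333, a predicted 6-phosphogluconolactonase (-1.07 ± 0.37, n = 3), and CG6084, a predicted aldose reductase (-0.96 ± 0.32, n = 3), none of them called (limma adjusted p = 0.239, 0.335 and 0.335). At 24 and 48 h the means of sug were positive, but neither was called, and at 48 h its arrays with mated RNA in Cy3 averaged -0.01. A difference between sug and these enzymes was not tested.

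At 72 h, when Ilp5 and sug were listed, the arrays split for the sugar genes. Of 15 tested, 9 had negative and 6 positive means, with a median of -0.08, 0 called and 1 at an unadjusted p under 0.05. On replicates 1 to 4 the list median was -0.31, 0.11, 0.12 and -0.34, with 12 of 15, 4 of 13, 5 of 15 and 10 of 12 genes below 0. Replicates 1 and 4, where the sugar genes were low, were also the 2 low arrays of CG11909 and of the fat body marker median. The largest of one sign were CG8249 (-0.64 ± 0.25, SD, n = 3; limma adjusted p = 0.208) and CG4797 (0.23 ± 0.18, SD, n = 4; limma adjusted p = 0.658), both of the sugar transporter family. Both had been listed by the study at 72 h. CG11909, at -1.29, remained lower than every tested gene of the list. In brains 11 of 13 were positive (median 0.12, 0 called, 0 at an unadjusted p under 0.05). Brain arrays with mated RNA in Cy3 had medians of 0.10 and -0.23, and those in Cy5 0.28 and 0.56. Of all brain probes measured in both orientations, 66.4% had means whose sign turned with the dye. At 0-2 h 9 of 13 sugar genes were negative (median -0.21, 0 called), beside 47.6% of all probes. An unadjusted p under 0.05 was reached by 2 lower and 1 higher, and by 245 of all 3871 probes in either direction. The study had listed all 3 of these genes at 0-2 h. The 0-2 h arrays with mated RNA in Cy3 had 10 of 12 and 10 of 13 sugar genes below 0 (medians -0.55 and -0.43), and those in Cy5 had 5 of 10 and 1 of 10 (medians 0.03 and 0.32), so this list shifted with the dye as well.

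**Figure D3:**
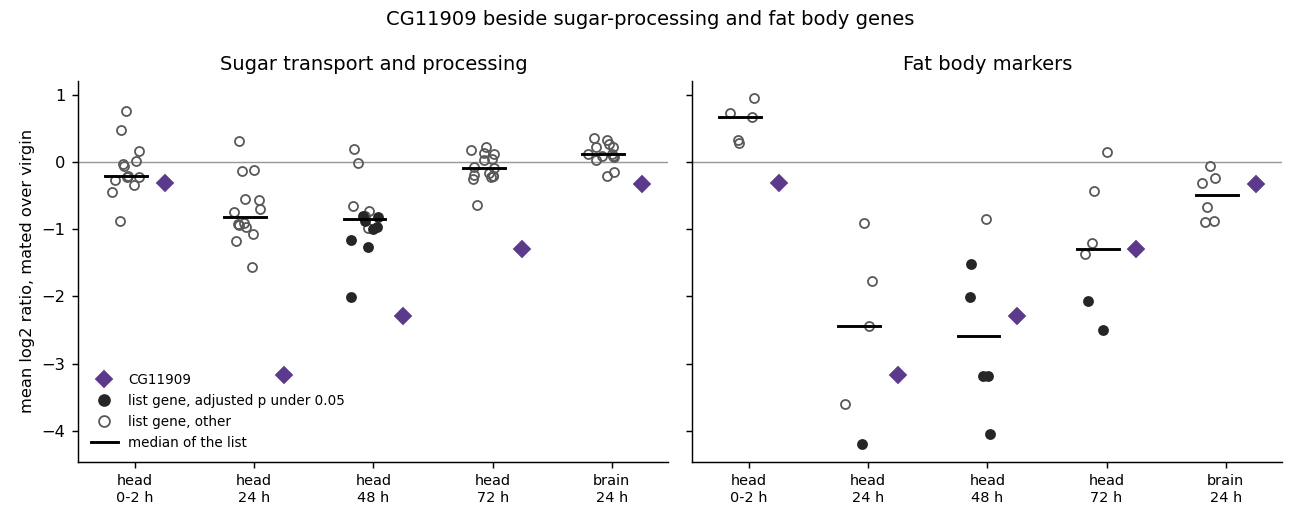
Mean log2 ratio of mated over virgin (vertical axis) by experiment for genes of sugar transport and processing (left) and for fat body markers (right), each circle 1 gene, filled where limma's adjusted p was under 0.05, with a line at the list median and CG11909 as a diamond beside it. CG11909 lies below all sugar genes at 24, 48 and 72 h and within the range of the fat body markers at the same times.

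Among 6 genes of feeding signals and fat mobilisation, of which to and fit are also fat body markers, all 6 had negative means in mated heads at 24 h (median -0.65, 0 called, 3 at an unadjusted p under 0.05). Negative means were found for 5 of 6 at 48 h and for 5 of 6 at 72 h (medians -0.79 and -0.50), with 1 called lower each time, beside 1.98% and 0.0623% of all probes. The study had listed 2 of these 6 genes at 24 h (fit and to), 1 at 48 h and 3 at 72 h, so their direction is not independent evidence. At 24 h both listed genes were among the 3 at an unadjusted p under 0.05, a level that 326 of all 4140 probes reached in either direction. The gene called was to (takeout), a secreted protein known to act in feeding, with -1.51 ± 0.25 at 48 h (SD, n = 4; limma adjusted p = 0.00266) and -2.06 ± 0.52 at 72 h (SD, n = 3; limma adjusted p = 0.0130). The triglyceride lipase gene bmm (brummer) had -0.73 ± 0.25 at 24 h (SD, n = 3), -0.73 ± 0.33 at 48 h (SD, n = 3) and -0.70 ± 0.29 at 72 h (SD, n = 4), none called (limma adjusted p = 0.453, 0.114 and 0.137). The values of bmm at 72 h were close in size to those of Ilp5.

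The female-enriched fat body gene fit had -1.77 ± 0.38 at 24 h (SD, n = 3; limma adjusted p = 0.146) and -0.84 ± 0.55 at 48 h (SD, n = 4; limma adjusted p = 0.0910), and dob, a lipase gene of the same family as bmm, had -0.57 ± 0.25 at 72 h (SD, n = 3; limma adjusted p = 0.288). None of these passed. In brains the list had a median of -0.08 and at 0-2 h one of 0.28, with 0 called in either.

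The genes with the most similar courses were found by the smallest root mean square difference between experiment means, over at least 4 experiments and 208 genes. Nearest to sug was CG6870, at 0.06 over 4 experiments, with means of 0.98, 0.28, 0.67 and 0.53 at 24, 48 and 72 h and in brains, beside 0.93, 0.27, 0.58 and 0.51 for sug. It had no mean at 0-2 h, the experiment where sug turned with the dye. The next were kraken (0.33, 5 experiments) and CG10680 (0.34, 5 experiments), which reached 1.19 and 0.88 at 24 h.

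Nearest to CG11909 were CG10962 (0.53), CG3699 (0.61) and CG31075 (0.74), each over 5 experiments. CG10962 had means of 0.18, -2.19, -2.43 and -1.40 at 0-2, 24, 48 and 72 h in heads and 0.10 in brains, beside -0.31, -3.18, -2.30, -1.29 and -0.33 for CG11909. All 3 shared low values at 24 and 48 h, smaller ones at 72 h and values near 0 in brains. The study had listed CG10962 and CG31075 at 24, 48 and 72 h and CG3699 at 24 and 48 h. Those time points also chose CG11909, so the shared low values are not independent evidence. Ilp5 had a mean in 2 experiments only, and no likeness was computed. The likeness is over few experiments that share their arrays, and only genes named from the study's lists could be compared.

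**Figure D4:**
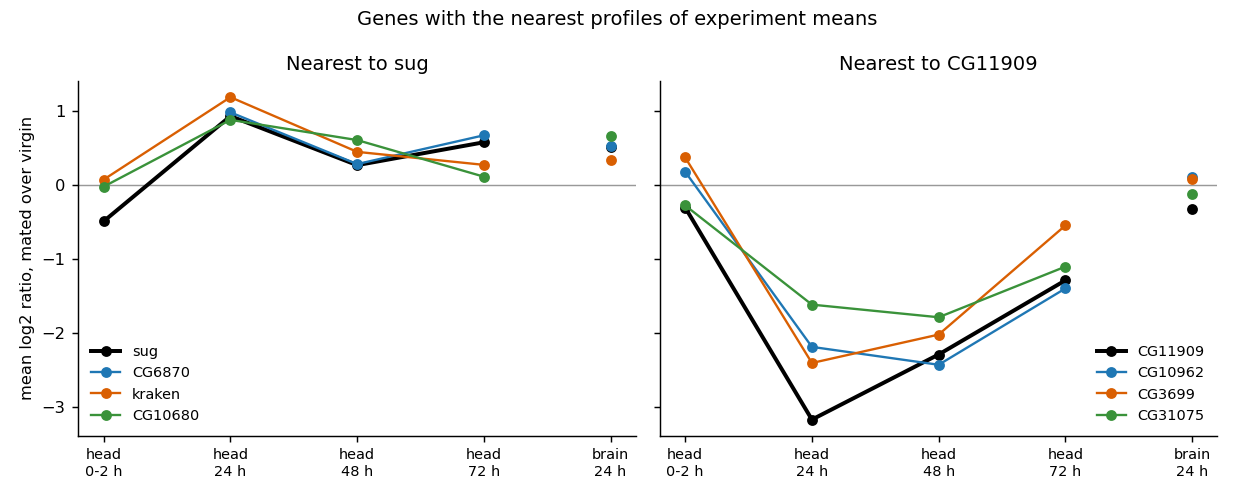
Mean log2 ratio of mated over virgin (vertical axis) by experiment for sug (left) and CG11909 (right) in black, with the 3 genes of the nearest course in colour and brains set apart from the head time course. CG6870 lies almost on sug from 24 h on, and CG10962 follows CG11909 with a smaller drop at 24 h, -2.19 beside -3.18. The mean of -3.18 is from 2 arrays, both with mated RNA in Cy5.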

How the data were processed

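The log2 ratios of mated over virgin were deposited by the authors for each of 20 two-colour arrays, normalized and turned for the dye swap. How the arrays were scanned, background-corrected and normalized, and why cells are empty, is not stated in the sources used here. Of 15776 rows, 32 controls were left out. The table names no genes. Names came from the study's lists of top genes, by matching the mean ratio (relative tolerance 2e-05) and p (relative tolerance 0.001) of an entry to a row; 493 of 499 entries matched, naming 389 genes. Rows on plates 2 to 30 (11136) hold the same gene in all experiments, which was checked on 44 genes listed in both print layouts. The lists' own ratios and p-values are not reported.

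Every probe with at least 2 values was tested per experiment with limma 3.58.1 (R 4.3.3), Benjamini-Hochberg adjusted over all probes, and differences in 1 fit of all 20 arrays. The script was checked on simulated data. Deviations of same-numbered samples correlated between heads at 0-2 and 48 h (r = 0.12 to 0.37 over 4 numbers). The same number gave the highest correlation for replicates 2 and 3, but not for replicates 1 and 4. No label gives same-numbered samples a shared source, and they also share the dye orientation, which cannot be told apart from a pairing. The 3 genes and the gene lists were chosen with earlier results of these data known, and the lists hold only genes that the study named from these samples. Of each list the 3 genes with the largest absolute mean, among those with at least 3 values of one sign, were named at 24, 48 and 72 h. The RefSeq annotation of release 6 gave current symbols and chromosome arms. Alternatives were centring, scaling, a dye term, values on all 4 arrays or in each orientation, robust eBayes, an unmoderated one-sample test, other arrays in the fit, a replicate block and each replicate left out.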

Additional observations from a re-analysis of the deposited data

Results flagged for a closer look

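In heads at 48 h, CG11909 had a log2 ratio of mated over virgin of -1.66 on replicate 4, against -2.52, -2.42 and -2.58 on replicates 1 to 3. The gap to the nearest array was 0.832 of the whole range, just past Dixon's critical value for 4 samples. Of 12 groups of 4 arrays examined this was the 1 past its value, and chance flags about 1 in 20. Without replicate 4 the mean was -2.51, and with all 4 arrays -2.30.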

How the results depend on the processing

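Of 103 recomputed values with a test, 99 kept their direction and stayed, like the values reported, above the threshold. The 57 recomputed means that chose the genes have no test, and all kept their direction. The 4 values that turned their sign all belonged to CG11909 where it was not called. In heads at 0-2 h, where its mean was -0.31, it was 0.094 with a dye term, 0.13 without replicate 1 and 0.059 without replicate 2, and in brains, where its mean was -0.33, it was 0.00381 without replicate 2. These shifts follow from which dye orientation or array was left out or balanced. No alternative brought a tested value under the threshold, the lowest adjusted p being 0.0656 for sug at 48 h minus 0-2 h without replicate 3 (limma).

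With each replicate that had a value left out in turn, the means ranged as follows. In heads CG11909 lay between -1.11 and 0.13 (0-2 h), between -3.35 and -3.01 (24 h, 1 array left, no test), between -2.51 and -2.20 (48 h) and between -1.51 and -0.98 (72 h), and for brains between -0.62 and 0.00381. Ilp5 lay between -0.63 and -0.55 (heads, 72 h) and between -0.49 and -0.27 (brains). In heads sug lay between -1.22 and -0.08 (0-2 h), between 0.22 and 1.64 (24 h, 1 array left, no test), between 0.09 and 0.42 (48 h) and between 0.52 and 0.69 (72 h), and for brains between 0.37 and 0.66.

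Over all experiments, deviations of same-numbered samples correlated at r = -0.30 to 0.37 (40 pairs, 18 above 0.1, the own number highest in 14), and all 4 numbers exceeded 0.1 only between heads at 0-2 and 48 h. With the replicate block, Ilp5 had -0.58 at 72 h and -0.41 in brains, sug 0.96 at 24 h, 0.27 at 48 h and 0.35 in brains, and CG11909, in a fit of the arrays of its layout chosen after seeing the data, -2.30 at 48 h, -1.29 at 72 h and -0.33 in brains. The difference of sug at 48 h minus 0-2 h was 0.68 with the block (limma adjusted p = 0.524). The block changed no call.

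Not run were differences for Ilp5, with too few values in heads, and for CG11909 between print layouts, a dye term for CG11909 and sug at 24 h, with values on 2 arrays, and the filter for values on all 4 arrays wherever one was empty. The differences of sug that involve 24 h were not run without replicate 1 or 3, which leaves 1 array there. Empty cells and values that turn with the dye limit these data.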
